A study of Mus musculus with 12 samples.

Results

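The keratin genes of the mouse genome were followed through the fetal male gonad in a pair of strains. Members were the genes whose symbol in the platform annotation is Krt followed by a number alone, each measured by at least 1 probe set that the annotation pairs with no other gene. The rule found 44 genes among the 18193 genes measured in this way. They are measured by 55 probe sets, and each of the 8 genes with several is given by the one with the highest mean over the 12 arrays. The rule leaves out Krt6a, Krt6b, Krt33a and Krt33b, whose symbols end in a letter, and 1 probe set shared by Krt14 and Krt17.

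Keratins build the intermediate filaments of epithelial cells. A filament needs a type I and a type II keratin, and cells express them in pairs. Krt5 with Krt14 marks the dividing basal layer of the epidermis, Krt1 with Krt10 the differentiating layers above it, and Krt8 with Krt18 the simple, single-layered epithelia. In the fetal gonad, simple keratins are known from the surface epithelium, the Sertoli cells and the adjoining ducts.

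Male genital ridges, also labelled testis, came from 129/Sv embryos (called 129) or from 129.MOLF-Chr 19 embryos (called M19) collected at E13.5, at E15.5 or at E17.5. M19 is a 129 strain whose chromosome 19 was replaced by that of MOLF. Each strain and stage had 2 arrays, and the labels state that 40 pairs of testes were pooled for a pair of arrays. The arrays of a group may thus come from 1 pool, and p-values then measure only the spread between these arrays, which may be technical. No member lies on chromosome 19, since RefSeq places 22 on chromosome 11 and 22 on chromosome 15. Krt18, a type I gene, sits beside its type II partner Krt8 on chromosome 15.

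Values are the deposited signals, taken as log2. Markers of the labelled tissue were bright. The 5 Sertoli genes averaged 11.25 to 11.89, the 4 measured germ cell genes 10.40 to 12.17 and the 4 measured fetal Leydig genes 10.83 to 13.26, where the median probe set averaged 8.17. Control probe sets set a pair of arrays apart. The probe set for 18S ribosomal RNA read 9.69 on 129 E13.5 replicate 1 and 6.88 to 8.38 on the other 11 arrays. The 3′ minus 5′ difference of the actin controls, a measure of RNA length, was 0.297 on 129 E17.5 replicate 2 and 0.585 to 0.724 on the other 11 arrays, and that of the Gapdh controls was -0.003 there and 0.063 to 0.425 elsewhere.

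The members fall into 9 epidermal keratins, 4 simple-epithelium keratins and 31 remaining genes. The epidermal group holds the basal keratins Krt5, Krt14 and Krt15, the suprabasal keratins Krt1, Krt2, Krt10 and Krt77, and Krt16 and Krt17 of skin appendages and wounds. The simple group holds Krt7, Krt8, Krt18 and Krt19. Among the remaining are 9 genes of the hair follicle sheaths, 10 of the hair shaft, 5 of stratified mucosa, cornea or palm, 6 of other tissues and Krt88, which was given no class. In 30 members the highest array lay above 8.17, while 14 stayed below it on all arrays. The epidermal keratins were already known to be high in 129 at E15.5 when the groups were chosen, so their calls are no independent evidence of that direction.

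RefSeq promoter windows, which run from 250 bases before the annotated start to 50 bases after it on build GRCm38.p6, were given for 31 of the 44 members. Shown here are a basal and a suprabasal gene that were high in 129 at E15.5, and the neighbours Krt8 and Krt18, which fell in both strains. Capitals mark matches on either strand to any of 5 motifs. The letters searched for the core promoter element known as the TATA box were TATAAA. Those for the element bound by nuclear factor Y were CCAAT, and those for the element bound by Sp1 were GGGCGG. For AP-1 the letters searched were TGANTCA, while those for AP-2, a family of epithelial transcription factors, were GCCNNNGGC. The Krt5 window is chr15:101712856-101713155 on the minus strand, that of Krt10 is chr11:99389315-99389614 on the minus strand, that of Krt8 is chr15:102004293-102004592 on the minus strand and that of Krt18 is chr15:102027966-102028265 on the plus strand.
Krt5: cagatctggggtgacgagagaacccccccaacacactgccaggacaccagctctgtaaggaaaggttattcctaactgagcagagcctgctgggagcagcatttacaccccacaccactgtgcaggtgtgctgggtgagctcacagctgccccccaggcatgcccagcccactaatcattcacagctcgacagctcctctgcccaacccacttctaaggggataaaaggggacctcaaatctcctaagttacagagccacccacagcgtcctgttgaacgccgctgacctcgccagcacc
Krt10: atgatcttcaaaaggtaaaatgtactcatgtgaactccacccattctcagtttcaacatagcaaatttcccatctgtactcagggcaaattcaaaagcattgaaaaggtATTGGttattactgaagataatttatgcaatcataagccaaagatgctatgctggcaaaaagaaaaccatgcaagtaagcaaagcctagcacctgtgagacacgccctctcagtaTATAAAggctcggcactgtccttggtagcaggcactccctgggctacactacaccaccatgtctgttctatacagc
Krt8: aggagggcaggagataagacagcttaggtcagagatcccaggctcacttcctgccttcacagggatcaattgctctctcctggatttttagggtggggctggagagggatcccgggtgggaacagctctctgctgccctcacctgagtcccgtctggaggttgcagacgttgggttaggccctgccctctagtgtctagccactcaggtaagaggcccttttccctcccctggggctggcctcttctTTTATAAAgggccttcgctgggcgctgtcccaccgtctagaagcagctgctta
Krt18: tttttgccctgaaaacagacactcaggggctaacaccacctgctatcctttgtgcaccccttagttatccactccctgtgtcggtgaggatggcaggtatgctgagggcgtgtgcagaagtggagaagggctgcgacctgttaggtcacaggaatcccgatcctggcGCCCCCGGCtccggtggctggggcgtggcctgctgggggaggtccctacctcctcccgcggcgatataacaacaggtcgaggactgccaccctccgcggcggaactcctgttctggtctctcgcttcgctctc
Krt10 has TATAAA 26 bases before the start and ATTGG, the reverse complement of CCAAT, 141 bases before it. In Krt8 the run of capitals holds overlapping TATAAA matches, one per strand, that span the annotated start. Krt18 has 1 match to the AP-2 letters, and Krt5 has none of the 5 motifs in this window.

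Across the members, 17 of 32 windows (53.1%) held TATAAA, against 13.6% of all 32851 windows in the table. GGGCGG was in 2 of the 32 keratin windows (6.25%), against 35.7% of all. Both were the windows of Krt7, with 4 matches, and Krt75, with 1. CCAAT stood in 13 windows (40.6%, against 37.4%), the AP-2 letters in 4 (12.5%, against 16.6%) and the AP-1 letters in 2 (6.25%, against 7.81%). The shares are descriptions of letters. Members of the gene clusters share ancestry and are not independent.

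The strains were first compared at E15.5, the stage at which the epidermal keratins stood out. Of the 9 epidermal keratins 6 were called lower in M19 than in 129, with differences from -3.65 log2 units for Krt1 to -0.96 for Krt77, where 0.533% of all genes were called lower. None of the 4 simple keratins was called. Of the remaining 31 members, Krt4 was the only one called. Values below are given by stage from E13.5 to E17.5, and within a stage replicate 1 comes before replicate 2.

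Krt5, the type II keratin of basal cells, read 8.28 and 7.62, 10.74 and 10.73, and 7.98 and 7.75 in 129. In M19 it read 7.89 and 7.77, 7.76 and 7.85, and 8.07 and 7.80. The 129 E15.5 arrays thus lay well above the other 10, which overlapped among stages and strains. Krt14, the type I partner of Krt5, read 10.00 and 9.44, 10.86 and 10.84, and 9.71 and 9.78 in 129. Its M19 values were 9.60 and 9.46, 9.25 and 9.45, and 10.06 and 9.72. Again the pair of 129 E15.5 arrays was highest, but with a narrower gap than for Krt5. Krt15, another basal type I keratin, read 7.81 and 7.27, 10.41 and 10.17, and 7.26 and 7.30 in 129. In M19 Krt15 stayed between 7.16 and 7.52 on all 6 arrays.

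Krt1, which replaces Krt5 as basal cells begin to differentiate, read 8.02 and 7.69, 11.30 and 11.39, and 7.96 and 7.98 in 129. Its 6 M19 arrays lay between 7.64 and 8.04. Krt10, the partner of Krt1, read 9.12 and 9.58, 11.74 and 11.76, and 9.43 and 9.38 in 129, and 9.21 to 9.57 in M19. Both thus had 1 high group of the 6. Krt77, a further suprabasal type II keratin, read 9.17 and 9.24 on the 129 E15.5 arrays and 8.08 to 8.59 on the other 10.

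The last 3 epidermal keratins behaved otherwise. Krt17 read 7.70 and 7.56 on the 129 E15.5 arrays, 7.17 and 7.03 on the M19 E15.5 arrays and 6.48 to 6.73 on the 8 arrays of the other stages. Both strains were thus higher at E15.5 than at the other stages. Krt17 was dim, below the median signal of 8.17 on all arrays. Krt16 ranged from 7.72 to 8.61, and its strains overlapped at each stage. Krt2, a keratin of the upper differentiated layers, was dim on all arrays. It read 4.29 and 5.47 on the M19 E17.5 arrays and 2.89 to 4.01 on the others.

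**Figure D1:**
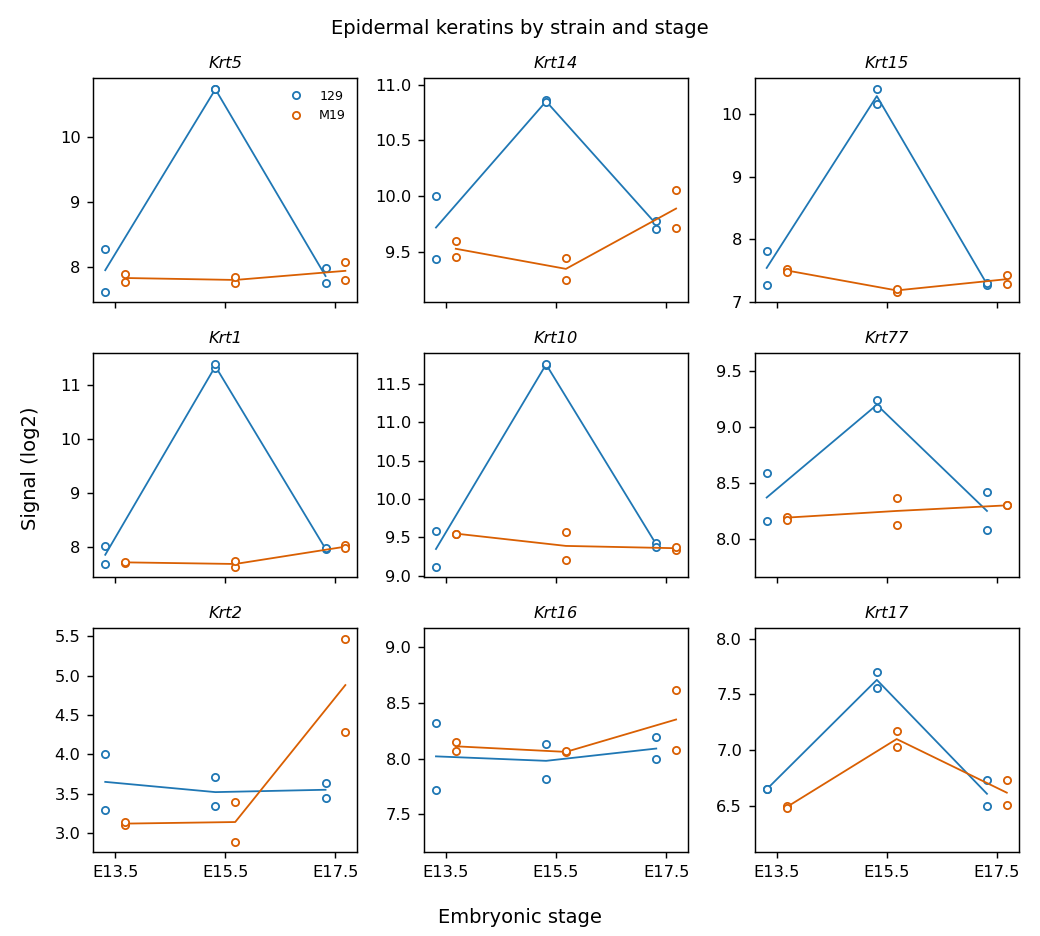
Deposited log2 signal (vertical axis) of the 9 epidermal keratins on each array, by embryonic stage (horizontal axis) and strain; points are arrays and lines join the means of 2 arrays. In 7 of the panels both 129 E15.5 arrays lie above the other 10, by the most in Krt1 at 11.30 and 11.39 against at most 8.04.

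Both 129 E15.5 arrays lay above all other arrays in 9 members, of which 7 were epidermal and the others were Krt4 and Krt84. Among all 18193 genes this was so for 343 (1.89%).

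The differences were tested with limma over all 45037 probe sets, and called genes are those with an adjusted p (Benjamini-Hochberg) under 0.05. At E15.5, 7 of 44 members were called lower in M19 and 0 higher, where 0.682% of all genes were called in either direction. Krt1 averaged 11.34 ± 0.06 (SD, n = 2) in 129 and 7.69 ± 0.07 (SD, n = 2) in M19, a difference of -3.65 ± 0.13 (SE; adjusted p = 5.6e-07). Krt15 differed by -3.11 ± 0.16 (adjusted p = 7.7e-06) and Krt5 by -2.93 ± 0.19 (adjusted p = 2.9e-05). Krt10 differed by -2.36 ± 0.16 (adjusted p = 3.7e-05). The partners Krt5 and Krt14 moved the same way, with -1.50 ± 0.18 for Krt14 (adjusted p = 0.0031). Krt77 differed by -0.96 ± 0.16 (adjusted p = 0.027). Krt4, which pairs with Krt13 in the lining of the mouth and oesophagus, differed by -1.07 ± 0.15 (adjusted p = 0.0099).

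Krt17 did not pass, at -0.53 ± 0.13 (adjusted p = 0.16), and neither did Krt2 at -0.38 (adjusted p = 0.91) nor Krt16 at 0.09 (95% interval -0.38 to 0.56). Krt84, a hair keratin, missed the threshold at -0.67 (adjusted p = 0.15). The median difference was -1.50 over the 9 epidermal keratins, -0.21 over the 4 simple ones, -0.05 over the remaining 31 and 0.01 over all genes.

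Krt1, Krt15, Krt5 and Krt10 stayed called when any 1 of the 12 arrays was left out. Without M19 E15.5 replicate 1, Krt14 lost its call (adjusted p = 0.061) and the count fell to 4. Krt4 lost its call without any 1 of the 4 E15.5 arrays (adjusted p = 0.056 to 0.14), and Krt77 without any 1 of those 4 or of the M19 E13.5 and E17.5 arrays (adjusted p = 0.051 to 0.33).

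**Figure D2:**
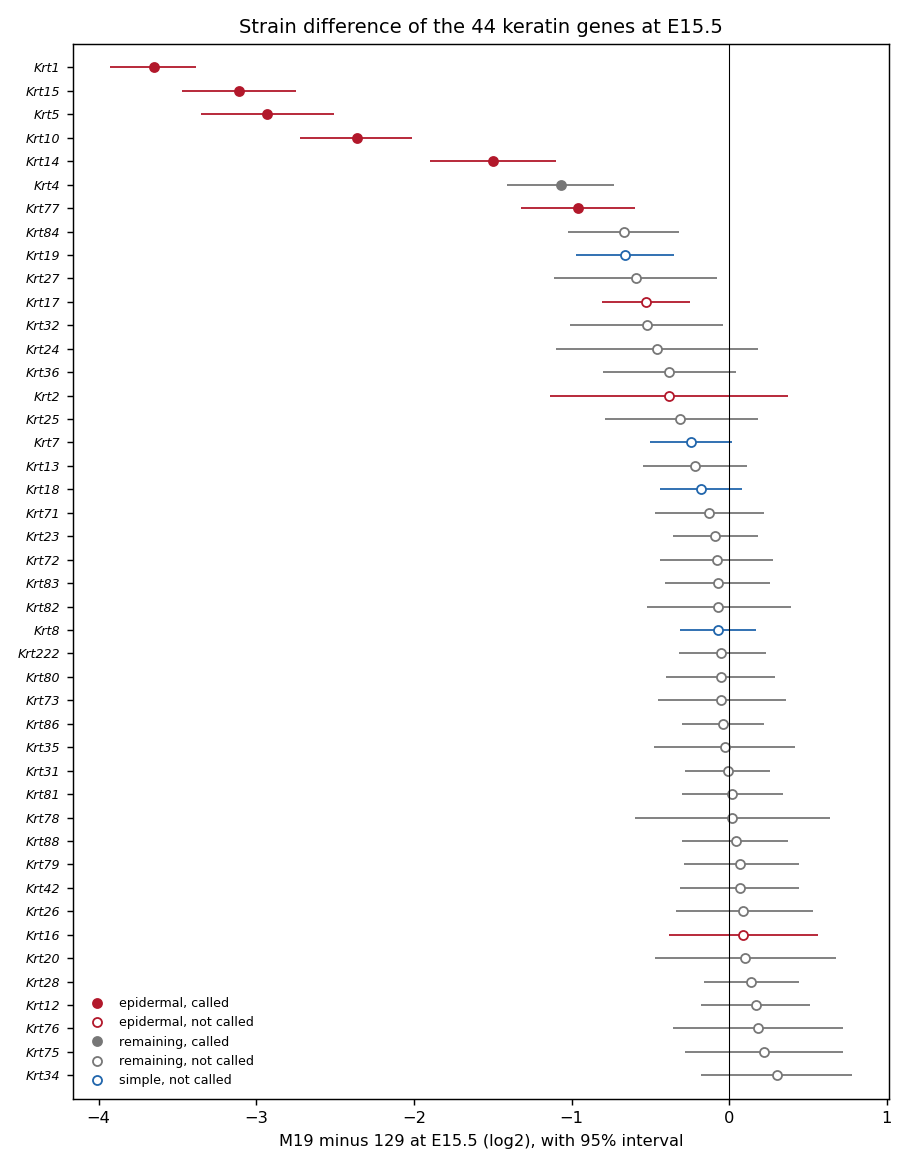
Difference M19 minus 129 at E15.5 on the log2 scale (horizontal axis) for each of the 44 keratin genes (vertical axis), with 95% intervals; filled points passed the test. The 7 filled points run from -3.65 for Krt1 to -0.96 for Krt77, and the 4 simple keratins lie between -0.66 and -0.07.

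The simple keratins at E15.5 were closer between the strains. None of the 4 was called by limma, while 1, Krt19, had an unadjusted p under 0.05, as did 1385 of all 18193 genes. All 4 were lower in M19 without overlap of the arrays, as were 18.6% of all genes. Krt19, a type I keratin of simple and ductal epithelium, differed by -0.66 ± 0.14 (95% interval -0.97 to -0.35; adjusted p = 0.09). With each gene given by the mean of all its probe sets, which leaves fewer tests, its adjusted p was 0.04. The interval was -0.50 to 0.02 for Krt7, -0.44 to 0.08 for Krt18 and -0.31 to 0.17 for Krt8. Strain differences as large as that of Krt14 thus lie outside these 4 intervals.

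Neighbours on the chromosome did not share the size of the difference. Krt1 (-3.65) lies between Krt2 (-0.38) and Krt77 (-0.96) in the keratin cluster of chromosome 15. On chromosome 11, Krt15 (-3.11) lies between Krt13 (-0.22) and Krt19 (-0.66), and Krt10 (-2.36) between Krt28 (0.14) and Krt12 (0.17). These are the next keratin genes in RefSeq order, and no test compared them.

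At the stages before and after, no keratin passed the strain test. At E13.5, limma called 0 of 44 members (background 0.033%), and 2, Krt13 and Krt72, had an unadjusted p under 0.05. Over all 18193 genes that count was 462. The median difference was -0.14 over the keratins, of which 37 lay below 0, and -0.06 over all genes, of which 12181 lay below 0. At E17.5, 0 of 44 were called (background 0.0550% higher and 0.0385% lower, 0.0934% either way), and 2, Krt2 and Krt8, had an unadjusted p under 0.05. Over all 18193 genes that count was 273. Krt2 was nominally higher in M19, by 1.33 ± 0.34 (adjusted p = 0.89). Replicates 1 and 2 read 4.29 and 5.47 in M19, and 3.64 and 3.45 in 129. The median was then 0.05, against 0.01 over all genes.

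Averaged over the 3 stages, 4 members were called lower in M19 (background 0.346% lower, 0.462% either way). They were Krt1 at -1.25 ± 0.07 (adjusted p = 1.8e-05), Krt15 at -1.03 ± 0.09 (adjusted p = 0.00048), Krt5 at -0.99 ± 0.11 (adjusted p = 0.0018) and Krt10 at -0.74 ± 0.09 (adjusted p = 0.0043). With the E15.5 arrays left out, an alternative chosen after seeing the data, the differences were -0.05, 0.02, -0.02 and 0.08 in the same order, and each had an adjusted p of 1.

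The next question was how each strain moved from E13.5 to E15.5. In the counts that follow, rose and fell mean called higher and called lower. In 129, 9 members rose and 3 fell, where 4.46% of all genes rose and 1.84% fell (6.30% either way). In M19, 1 member rose and 4 fell, where 5.74% of all genes rose and 1.66% fell (7.40% either way). The risers of 129 were mostly epidermal, and those that fell in either strain were all simple keratins. These steps use the same E15.5 arrays as the strain comparison, so they are no separate evidence for it.

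Among the epidermal keratins 7 of 9 rose in 129. The largest step was that of Krt1, 3.49 ± 0.13 (adjusted p = 2.9e-07), followed by Krt5 at 2.78 ± 0.19 (adjusted p = 1e-05), Krt15 at 2.75 ± 0.16 (adjusted p = 4e-06) and Krt10 at 2.41 ± 0.16 (adjusted p = 8.6e-06). Krt14 rose by 1.13 ± 0.18 (adjusted p = 0.0043), Krt17 by 0.98 ± 0.13 (adjusted p = 0.001) and Krt77 by 0.83 ± 0.16 (adjusted p = 0.014). Outside the epidermal group Krt4 rose by 1.22 ± 0.15 (adjusted p = 0.00083) and Krt84 by 0.72 ± 0.16 (adjusted p = 0.026). In M19, Krt17 alone of the 44 rose, by 0.61 ± 0.13 (adjusted p = 0.016). The second probe set of Krt17 gave 0.06 in 129 and -0.04 in M19, so the probe sets of this gene disagree. Krt17 in M19 also lost its call without any 1 of the M19 E13.5 and E15.5 arrays (adjusted p = 0.062 to 0.16). In 129, Krt77 lost its call without E13.5 replicate 2, E15.5 replicate 1 or E15.5 replicate 2 (adjusted p = 0.053 to 0.081), and Krt84 without E13.5 replicate 2 (adjusted p = 0.087) or E15.5 replicate 1 (adjusted p = 0.18). Without 129 E13.5 replicate 1, the array with high 18S signal, the count in 129 was 12 as before.

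Over the same step 3 of the 4 simple keratins fell in 129 and all 4 in M19. Krt18, the type I keratin of simple epithelia, read 10.77 and 10.71, 8.88 and 9.04, and 9.41 and 9.56 in 129. In M19 it read 10.73 and 10.63, 8.86 and 8.70, and 9.66 and 9.56. All 4 E13.5 arrays lay above all 4 E17.5 arrays, and those above all 4 E15.5 arrays. Its partner Krt8 read 10.27 and 10.45, 9.59 and 9.60, and 9.81 and 9.89 in 129, and 10.22 and 10.21, 9.53 and 9.52, and 10.05 and 10.15 in M19. The order of the stages was the same as for Krt18, over a smaller range.

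Krt7, a type II keratin of ducts and glands, read 9.11 and 9.30, 8.41 and 8.55, and 8.25 and 8.35 in 129. In M19 it read 9.13 and 9.11, 8.32 and 8.16, and 8.34 and 8.37. It was thus highest at E13.5. From E15.5 to E17.5 it differed by -0.18 in 129 (adjusted p = 0.58) and 0.12 in M19 (adjusted p = 0.67), neither of which passed. Krt19 read 8.94 and 9.04, 8.78 and 8.88, and 8.32 and 8.73 in 129, and 8.85 and 8.86, 8.22 and 8.11, and 8.64 and 8.48 in M19. Its M19 E15.5 arrays were the lowest of the 12.

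**Figure D3:**
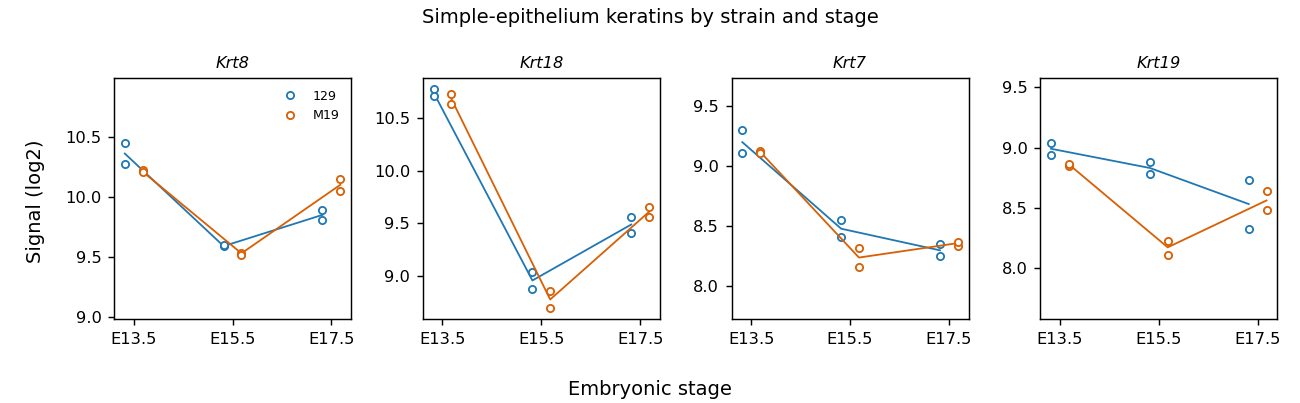
Deposited log2 signal (vertical axis) of the 4 simple-epithelium keratins on each array, by embryonic stage (horizontal axis) and strain; points are arrays and lines join the means of 2 arrays. Krt18 drops from 10.63 to 10.77 at E13.5 to 8.70 to 9.04 at E15.5 in both strains, and Krt19 at E15.5 is lower in M19 (8.22 and 8.11) than in 129 (8.78 and 8.88).

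The tests gave these sizes. Krt18 fell by 1.78 on the log2 scale in 129 (SE 0.12, adjusted p = 8.6e-06), and its change in M19 was -1.90 ± 0.12 (adjusted p = 4.9e-06). Krt8 changed by -0.76 ± 0.11 in 129 (adjusted p = 0.002) and -0.68 ± 0.11 in M19 (adjusted p = 0.0035). Krt7 changed by -0.72 ± 0.12 (adjusted p = 0.0047) and -0.88 ± 0.12 (adjusted p = 0.0011). For Krt19 the step was -0.16 in 129 (adjusted p = 0.7) and -0.69 ± 0.14 in M19 (adjusted p = 0.015). The median step of the 4 was -0.74 in 129 and -0.79 in M19, where that of all genes was -0.03 and 0.05. All 3 probe sets of Krt8 were called in both strains, with -0.80 and -0.71 for the further ones in 129 and -0.76 and -0.68 in M19. In M19 the call of Krt19 was lost without any 1 of the E13.5 and E15.5 arrays of that strain (adjusted p = 0.078 to 0.13), and that of Krt8 without E13.5 replicate 1 (adjusted p = 0.051). The count of called members in M19 was 2 without its E13.5 replicate 1, 3 without E13.5 replicate 2 and 3 without E15.5 replicate 1. With the 4 compared arrays of 129 alone in the fit, which leaves 2 residual degrees of freedom, 5 of the 12 calls in 129 were made.

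From E15.5 to E17.5 the epidermal keratins of 129 went back. There, 8 members fell and 1 rose, where 1.24% of all genes fell and 1.18% rose (2.42% either way). Krt1 changed by -3.38 (adjusted p = 4.4e-07), Krt15 by -3.01 (adjusted p = 6.9e-06), Krt5 by -2.87 (adjusted p = 2.8e-05) and Krt10 by -2.35 (adjusted p = 3.3e-05). Krt14 at -1.11 (adjusted p = 0.012), Krt17 at -1.01 (adjusted p = 0.0023), Krt77 at -0.95 (adjusted p = 0.014) and Krt4 at -0.81 (adjusted p = 0.026) completed the fallers. The second probe set of Krt17 gave -0.33 (adjusted p = 0.6). At E17.5 the 129 means of Krt1, Krt5 and Krt15 were 7.97, 7.86 and 7.28, beside 7.86, 7.95 and 7.54 at E13.5. Krt14 lost its call without any 1 of the 129 E15.5 and E17.5 arrays (adjusted p = 0.066 to 0.10). Krt4 did so without any 1 of those 4 or of the M19 E13.5 arrays (adjusted p = 0.054 to 0.19), and Krt77 without 129 E15.5 replicate 1, E15.5 replicate 2 or E17.5 replicate 2 (adjusted p = 0.065 to 0.17). The count of called members was 5 without 129 E15.5 replicate 2 and 5 without 129 E17.5 replicate 2, the array with the low 3′ minus 5′ differences.

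In M19 over the same step 4 members rose and 0 fell, where 1.45% of all genes rose and 1.79% fell (3.23% either way). The single riser of 129, Krt25, was among them. Krt25, a type I keratin of the inner root sheath of the hair follicle, read 5.18 and 5.02, 5.88 and 5.35, and 6.85 and 6.98 in 129. In M19 it read 4.75 and 4.50, 5.63 and 5.00, and 6.59 and 6.79. It was dim throughout, and all 4 E17.5 arrays lay above the other 8. The step was 1.30 ± 0.22 in 129 (adjusted p = 0.013) and 1.38 ± 0.22 in M19 (adjusted p = 0.0096).

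The simple pair also rose again in M19. Krt18 changed by 0.83 ± 0.12 (adjusted p = 0.0052) and Krt8 by 0.58 ± 0.11 (adjusted p = 0.022). In 129 the values were 0.53 for Krt18 (adjusted p = 0.057) and 0.26 for Krt8 (adjusted p = 0.35). The fourth riser of M19 was Krt2, with 1.74 ± 0.34 (adjusted p = 0.027) and 1.15 (adjusted p = 0.11) without M19 E17.5 replicate 2. Its call was also lost without any 1 of the M19 E13.5, M19 E15.5 and 129 E17.5 arrays (adjusted p = 0.051 to 0.29). Without M19 E13.5 replicate 1 or replicate 2, or M19 E15.5 replicate 1, 2 members were called, without M19 E15.5 replicate 2 it was 0, and without either M19 E17.5 replicate it was 1. Krt18 lost its call without M19 E15.5 replicate 2 or E17.5 replicate 1 (adjusted p = 0.062 for both). Krt8 did so without any 1 of the 6 M19 arrays (adjusted p = 0.059 to 0.19), and Krt25 without M19 E15.5 replicate 2 or either M19 E17.5 replicate (adjusted p = 0.052 to 0.076). In 129 Krt25 lost its call without E15.5 replicate 2 (adjusted p = 0.099), E17.5 replicate 1 (adjusted p = 0.083) or E17.5 replicate 2 (adjusted p = 0.14). With each array centred on its median, Krt8 in M19 had an adjusted p of 0.054.

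The difference of the steps between the strains was tested as its own contrast. For either step it uses the 129 E15.5 arrays, on which the epidermal keratins were already known to be high. Their calls here are thus no separate evidence. From E13.5 to E15.5, 4 members had a smaller step in M19 than in 129 (background 0.165% lower, 0.192% either way), namely Krt1 (-3.51 ± 0.18), Krt15 (-3.07 ± 0.23), Krt5 (-2.81 ± 0.27) and Krt10 (-2.56 ± 0.23), with adjusted p between 2.5e-05 and 0.0015. From E15.5 to E17.5, 5 members had a higher step in M19 (background 0.165% higher and 0.0055% lower, 0.170% either way). They were the same 4 and Krt14, at 1.65 ± 0.26 (adjusted p = 0.043). The call of Krt14 was lost in 10 of the 12 fits that left out 1 array (adjusted p up to 0.27). It was also lost with quantile normalization (adjusted p = 0.054), the mean of all probe sets (adjusted p = 0.083) and the next brightest probe set (adjusted p = 0.11).

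None of the 4 simple keratins differed between the strains in its first step by this test, while 1, Krt19, had an unadjusted p under 0.05. Over all 18193 genes that count was 668 for the first step and 751 for the second. The intervals of the first step were -0.26 to 0.42 for Krt8, -0.49 to 0.25 for Krt18, -0.53 to 0.21 for Krt7 and -0.97 to -0.09 for Krt19. For the second step limma again called 0 of the 4, and 1 had an unadjusted p under 0.05, Krt19 at 0.69 (95% interval 0.26 to 1.13; adjusted p = 0.56). The differences of the epidermal 4 lay outside the intervals of Krt7, Krt8, Krt18 and Krt19.

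**Figure D4:**
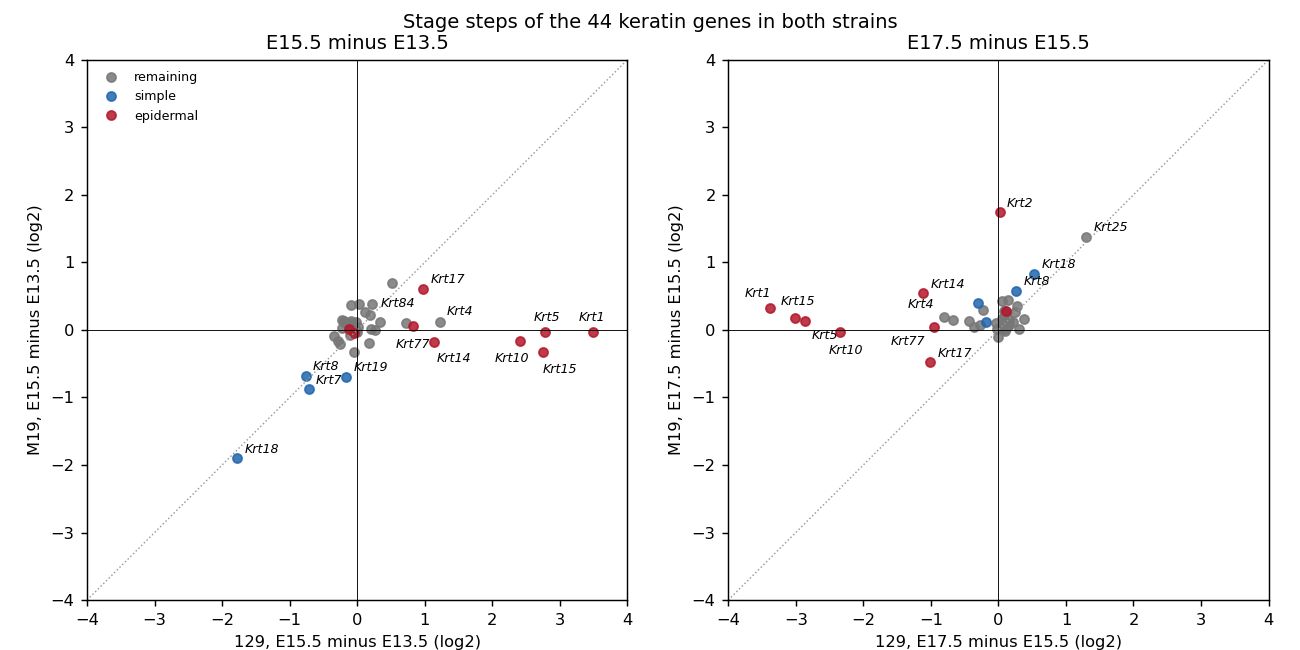
Steps between stages on the log2 scale in M19 (vertical axis) against 129 (horizontal axis) for the 44 keratin genes, E15.5 minus E13.5 on the left and E17.5 minus E15.5 on the right; the dotted line marks equal steps. On the left Krt18 is at -1.78 in 129 and -1.90 in M19 and Krt19 at -0.16 and -0.69, while Krt1, at 3.49 in 129, with Krt5, Krt15 and Krt10, lies near 0 on the M19 axis.

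The remaining 31 keratins were mostly flat. In 23 of them the range over the 12 arrays stayed under 1 log2 unit. The hair shaft keratins Krt31 (7.32 to 7.61) and Krt86 (7.06 to 7.38) had the narrowest ranges. The highest array was 129 E13.5 replicate 1, the array with high 18S signal, for 14 of the 31 (45.2%), against 24.3% of all genes. Over all 10 comparisons, 29 of the 44 members were never called and the other 15 made 50 calls. The matching shares of all genes, for these calls and for the ranges, are not given here, so both counts are descriptions only.

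Genes that work beside keratins were read from lists in the same strain comparison at E15.5. Desmosomes anchor keratin filaments to the cell border. Of 13 desmosome genes measured, 4 were called lower in M19, beside 0.533% of all genes: Perp (-4.05 ± 0.23, adjusted p = 1.2e-05), Dsg1a (-1.51 ± 0.15, adjusted p = 0.0007), Dsp (-1.08 ± 0.21, adjusted p = 0.049) and Pkp1 (-1.07 ± 0.18, adjusted p = 0.024). Pkp2 was the highest of the list at 0.53 (adjusted p = 0.35), and the list median was -0.25. Of 14 genes of the cornified layer, the dead outer coat of the epidermis, 4 were called lower (Krtdap -3.30, Dmkn -2.38, Sprr1b -1.72 and Sbsn -1.19), with a median of -0.45. None of 8 epidermal transcription factors was called by limma, while 3 had an unadjusted p under 0.05, as did 1385 of all 18193 genes. Their median was -0.30, and Trp63, the regulator of stratified epithelia, had -0.14. From E13.5 to E15.5 in 129, 1 of the 8 was called higher, beside 4.46% of all genes, and the list median was 0.12. It was Klf4, a factor of epidermal barrier formation, at 1.45 ± 0.23 (adjusted p = 0.0039), with 0.61 in M19. Unlike the epidermal keratins, Klf4 did not go back in 129, with means of 8.88, 10.33 and 10.09 from E13.5 to E17.5.

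Marker lists of other cell types were read beside the epidermal keratins. The mean of 8 keratinocyte markers was 9.01 to 9.05 on the 129 E15.5 arrays and 7.76 to 8.22 on the other 10. This rests mainly on Perp, which averaged 10.03 in 129 and 5.97 in M19 at E15.5, and Krtdap, at 9.97 and 6.67. The others differed less, from Lor at 11.73 and 11.03 to Dsc3 at 7.40 and 7.32. In the strain comparison at E15.5, 2 of the 8 were called lower in M19, beside 0.533% of all genes, and the list median was -0.28. These were Perp and Krtdap, which also count among the called genes of the desmosome and cornified layer lists above. The 6 skeletal muscle markers averaged 9.25 to 9.33 on the 129 E15.5 arrays and 7.37 to 7.87 elsewhere. Their strain differences at E15.5 ran from -3.47 to -0.55, and 5 of the 6 were called lower in M19. The 4 cartilage markers averaged 8.89 to 8.97 there and 7.85 to 8.34 elsewhere. Their differences ran from -2.63 to -0.02, and 2 of the 4 were called lower. The 4 germ cell markers moved the other way, averaging 11.47 to 11.69 on the 129 E15.5 arrays and 12.09 to 12.17 on the M19 E15.5 arrays. Their median difference was 0.60, and 1 of the 4 was called higher in M19, beside 0.148% of all genes. The lowest single value was 5.52 in the keratinocyte list, 6.99 in the muscle list and 7.07 in the cartilage list. These lie below 8.17, the average of the median probe set. In the germ cell list it was 8.77. The part of these markers in the keratin result was not tested. In bulk tissue, fewer cells of a type and less RNA per cell cannot be told apart.

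**Figure D5:**
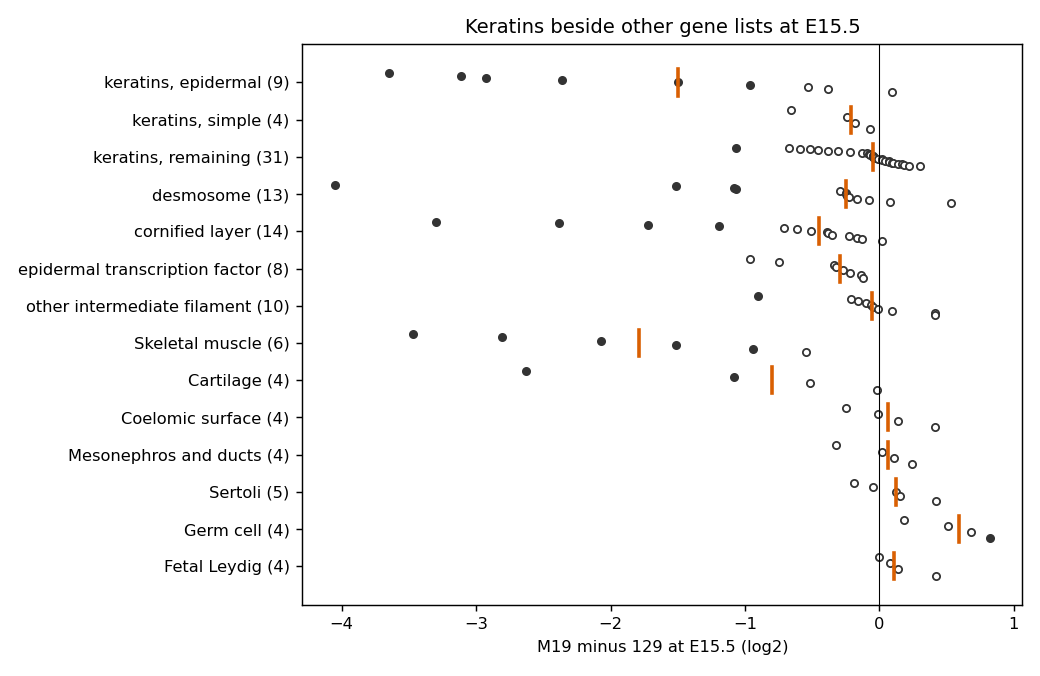
Difference M19 minus 129 at E15.5 on the log2 scale (horizontal axis) for the keratin groups and other gene lists (rows, with the number of genes measured); each point is a gene, filled where it passed the test, and the orange bar is the median. The epidermal keratins (median -1.50), the skeletal muscle markers (-1.79) and the cartilage markers (-0.80) lie to the left. The simple keratins (-0.21), all of them below 0, and the Sertoli markers (0.12) lie nearer 0.

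Markers of gonadal surface and ducts were read beside the simple keratins. The 4 coelomic surface markers averaged 9.19 to 9.29 on the E13.5 arrays and 8.70 to 8.91 later, while the 4 measured markers of mesonephros and ducts averaged 9.92 to 10.09 at E13.5, 9.38 to 9.54 at E15.5 and 8.55 to 9.11 at E17.5. From E13.5 to E15.5, 2 of the 4 surface markers were called lower in 129 and 1 in M19, and 2 of the 4 duct markers in each strain. Of all genes, 1.84% were called lower in 129 and 1.66% in M19. The surface steps ran from -1.04 to -0.03 in 129 and from -0.77 to -0.02 in M19. The duct steps ran from -1.0 to 0.01 in 129 and from -1.01 to -0.03 in M19. Upk3b of the surface epithelium changed by -1.04 in 129 and -0.77 in M19, and the epithelial cadherin Cdh1 by -0.93 and -0.86. Emx2, a regulator of urogenital development, changed by -1.01 in M19, and all 3 were called in both strains. The other markers of both lists changed less. Epcam averaged 9.74 at E13.5 and 9.75 at E15.5 in 129, and 9.60 and 9.43 in M19. Upk1b averaged 9.08 and 9.05 in 129, and 9.01 and 8.79 in M19. None of the 5 Sertoli markers was called in this step by limma in either strain, with medians of 0.17 and 0.26, and 2 had an unadjusted p under 0.05 in each. Of all 18193 genes, 3362 in 129 and 3494 in M19 had one. The lowest single value was 7.85 in the surface list and 6.79 in the duct list, both below the 8.17 of the median probe set. The part of these markers in the fall of the simple keratins was not tested.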

How the data were processed

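Total RNA of pooled male genital ridges was measured on 12 Affymetrix whole-genome mouse arrays, 2 for each of 6 groups. The deposited file gives 1 value per probe set and array, and the summary method, normalization and log base are not given in the sources used here. The deposited values, from 0 to 15.03 with array medians of 8.10 to 8.27, were taken as log2. Arrays have no read depth, and their number limits the precision.

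Of 45101 probe sets, 64 controls were left out. The platform annotation pairs 34945 of the others with 1 gene, 932 with several and 9160 with none, and RefSeq (GRCm38.p6) matched 34741 of the first. A linear model with 6 group means was fitted to all 12 arrays with limma 3.58.1 in R 4.3.3 (eBayes, 6 residual and 4.82 prior degrees of freedom, no block). Tests were two-sided, and calls need a Benjamini-Hochberg adjusted p under 0.05 over 45037 probe sets. Strain differences are M19 minus 129, and steps are the later stage minus the earlier. The procedure was tested on simulated data. Python 3.11.15, pandas 2.3.3 and matplotlib 3.10.9 handled annotation, promoter windows and plots.

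The members, their classes and the other lists were chosen with earlier results of these data known. Named are all epidermal and simple keratins, other keratins called in any of 10 comparisons, neighbours and extremes that the text singles out after their values were seen, and genes of the lists. Alternatives were other scalings, filters on dim probe sets, variance models, fewer arrays, a replicate block and other probe sets per gene.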

Additional observations from a re-analysis of the deposited data

Results flagged for a closer look

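Each strain's change between stages was set against the other's by a test of the difference itself, and 9 such differences of keratin genes passed it. From E13.5 to E15.5, M19 minus 129, they were -3.51 for Krt1 (adjusted p = 2.5e-05), -3.07 for Krt15 (adjusted p = 0.00038), -2.81 for Krt5 (adjusted p = 0.0015) and -2.56 for Krt10 (adjusted p = 0.00092). These basal and suprabasal keratins rose in 129 and were not called in M19 in that step. The share of all genes called lower by this contrast was 0.165%. From E15.5 to E17.5 they were 3.70 for Krt1 (adjusted p = 1.8e-05), 3.19 for Krt15 (adjusted p = 0.00022), 3.00 for Krt5 (adjusted p = 0.00082), 2.31 for Krt10 (adjusted p = 0.0017) and 1.65 for Krt14 (adjusted p = 0.043). The call of Krt14 was lost in 10 of 12 fits without 1 array and under 3 other alternatives. Both sets of differences use the same E15.5 arrays, so they are not independent of each other. Those include the 129 arrays on which the epidermal keratins were already known to be high, so the 9 are no independent evidence of that.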

How the results depend on the processing

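The count of called keratins was recomputed under each alternative. Of 220 recomputed counts 24 moved by over 1.5 times, and 13 of the 23 alternatives moved at least 1 of the 10 counts. With the next brightest probe set, which exists for 8 members only, the count was 2 for strains at E15.5, 0 over stages, 4 and 2 for the first and second step in 129, 2 and 1 for those in M19, and 0 and 1 for the differences of the steps. Without the E15.5 arrays it was 0 over stages. With only the compared arrays it was 5 for the first step in 129, and with either filter on dim probe sets 2 for the second step in M19. Direction reversed in 3 of 1196 recomputed gene results: Krt15 (0.02) and Krt10 (0.08) over stages without the E15.5 arrays, and Krt17 in the first step of M19 with its next probe set (-0.04). These 3 results also lost their calls. In a further 87 a call was lost without a reversal, and in 1 it was gained.

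Leaving out each array in turn gave 0 calls between strains at E13.5 and at E17.5, 4 to 7 at E15.5 and 4 to 6 over stages. The ranges were 10 to 12 and 5 to 11 for the first and second step in 129, 2 to 5 and 0 to 5 in M19, and 4 to 6 for either difference of steps.

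Replicate numbers are shared by all groups. The numbers were not taken as pairs, since the correlation of same-numbered deviations ran from -0.373 to 0.539 over 15 pairs of groups, with 6 above 0.1. Those 6 were all pairs among 129 E13.5, M19 E13.5, 129 E15.5 and M19 E17.5. With the replicate block, calls between strains were 0 at E13.5, 8 at E15.5, 0 at E17.5 and 4 over stages, those of the steps 12 and 10 in 129 and 5 and 4 in M19, and those of the differences of steps 4 and 5. The cause of these shifts was not tested. With 2 arrays a group, small differences of dim keratins could not be resolved.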

Other observations

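Of 10 intermediate filament genes measured outside the keratin family, Lmna, a nuclear lamin, was the one called between strains at E15.5 (-0.90 ± 0.14, adjusted p = 0.014). Of all genes, 0.682% were called there in either direction. From E13.5 to E15.5 in 129, 3 of the 10 were called higher and 1 lower, beside 4.46% and 1.84% of all genes. In M19, 1 was called higher and 0 lower, beside 5.74% and 1.66%. Synm, the muscle filament protein synemin, rose from E13.5 to E15.5 in both strains, by 1.28 ± 0.20 in 129 (adjusted p = 0.0038) and 1.60 ± 0.20 in M19 (adjusted p = 0.00077). Nefm, a neurofilament subunit, had steps of 1.19 ± 0.29 in 129 (adjusted p = 0.043) and 1.00 ± 0.29 in M19 (adjusted p = 0.082). Lmnb1, another lamin, changed over this step by -0.64 ± 0.11 in 129 (adjusted p = 0.0063). In M19 its means were 11.39 at E13.5 and 11.35 at E15.5. Vim, the filament protein of mesenchyme, differed by -0.10 between strains at E15.5.

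Some keratins with several probe sets gave unequal values. The second probe set of Krt222 changed by -1.06 ± 0.20 in 129 (adjusted p = 0.012) and -0.85 ± 0.20 in M19 (adjusted p = 0.033) from E13.5 to E15.5, where the brightest gave -0.25 and -0.21. Krt14 differed between strains at E15.5 by -1.67 ± 0.23 on its second probe set (adjusted p = 0.0076) and by -0.26 on the dimmest of its 3. The second probe set of Krt4 gave -1.09 ± 0.12 (adjusted p = 0.0015), close to the brightest.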
